A study of Mus musculus with 8 samples.

Results

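Mouse CD8 T cells that expressed a TOX protein from a vector, marked by green fluorescent protein (GFP), were compared with GFP-negative cells over both TOX constructs at once. The comparison used all 8 libraries of the series, 4 GFP-positive against 4 GFP-negative, with the construct as a factor, and all 31815 gene rows of the deposited table. The cells were CD3+CD8+ splenocytes, labelled naive, of OT-I mice on the C57BL/6 background (C57BL/6-Tg(TcraTcrb)1100Mjb/J), a line in which T cells bear 1 transgenic receptor against a peptide of ovalbumin (OVA). All 4 groups had the same history: OVA peptide for 3 days, transduction at 24 h, and sorting on day 5. The groups were TOXFL GFP-negative, TOXFL GFP-positive, TOXdeltaN GFP-negative and TOXdeltaN GFP-positive cells, with 2 libraries each. GFP was translated from the same transcript as the TOX protein through an internal ribosome entry site, and only the brightest 20% of the GFP-positive cells were taken.

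TOX acts in the nucleus and binds DNA through an HMG-box. It is needed for CD4 T cells to develop in the thymus, and in mature CD8 T cells it is induced by lasting receptor stimulation and is required to form the exhausted state, in which cells bear inhibitory receptors and make fewer cytokines. TOXFL is the full-length protein and TOXdeltaN a shorter one from the same gene, and the deposited columns name them Long and Short. Cells with a vector for GFP alone were not analysed here. A difference shared by both constructs therefore holds the effect of either TOX protein, of the vector and of sorting on GFP, which cannot be told apart.

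Libraries were made from 8 ng of total RNA each. Total estimated counts per library ran from 25059112 to 31240067, and 16577 to 16943 genes had a count. Replicates of a group differed by more than counting error, by a chi-square over its degrees of freedom of 11.4 in TOXFL GFP-negative and 39.7 in TOXdeltaN GFP-positive cells. Whether replicates are separate mice or cultures is not in the labels, so p-values reflect only the variation among these 8 libraries, which may be technical. The 10 CD8 T cell markers summed to 5187 to 5489 CPM (counts scaled to library size) in GFP-negative and 4879 to 5464 CPM in GFP-positive libraries, with none called different without the block described below and Cd8b1 called lower with it. Markers of CD4 T cells summed to 7.31 to 11.2 CPM, of NK cells to 4.08 to 9.50 CPM, of B cells to 14.1 to 17.5 CPM, nearly all of it Cd79b, and of myeloid cells to 4.80 to 9.51 CPM, with Pax5, Adgre1, S100a8 and S100a9 at 0 in every library. Erythroid markers summed to 0.135 to 4.34 CPM. Of the 6 gamma-delta T cell markers only Sox13 and Cd163l1 are in the table, summing to 16.02 to 22.7 CPM in GFP-negative and 8.75 to 16.6 CPM in GFP-positive libraries, and Cd163l1 fell (-0.69 log2, adjusted p = 0.0362), from 13.5, 21.6, 15.9 and 17 CPM without GFP to 13.5, 11.3, 9.36 and 8.47 CPM with GFP, with overlapping groups. Its part in other results was not tested. In bulk RNA, a change in the number of cells of a type or phase and a change in RNA per cell cannot be told apart. One library stood apart in its mitochondrial reads: genes of the mitochondrial genome took 0.45% of the counts of TOXFL GFP-positive replicate 2, against 0.708% to 0.909% in the other 7.

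Tox itself was measured first. The gene (ENSMUSG00000041272.11) lies on the minus strand at chr4:6686353-6991557 of GRCm38. Here and below, values are listed in the order TOXFL replicates 1 and 2, then TOXdeltaN replicates 1 and 2. Tox stood at 25, 34.4, 21.8 and 32.1 CPM in the GFP-negative and at 105, 126, 107 and 82.9 CPM in the GFP-positive libraries. Every GFP-positive library lay above every GFP-negative library. The pooled log2 fold change was 1.89 (SE 0.15, adjusted p = 0.000524), and it was 1.96 within TOXFL and 1.82 within TOXdeltaN. The counts do not separate vector-encoded from endogenous Tox transcripts. Of the other family members, Tox4 did not pass the test (-0.09 log2, adjusted p = 0.457), and Tox2 and Tox3 were too low to test.

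Across the genome, 316 of 13329 tested genes were higher in GFP-positive cells (2.37%) and 257 were lower (1.93%), at an adjusted p under 0.05 in the edgeR quasi-likelihood test. Such genes are called below. The changes were small: the median log2 fold change was 0.416 among genes called higher and -0.457 among genes called lower, and 25 and 12 genes passed 1 in log2. Nearly all were protein-coding (314 and 250). The 4 GFP-positive libraries did not overlap the 4 GFP-negative ones for 308 of the genes called higher (8.22% of all tested genes lay wholly above) and for 243 of those called lower (8.08% wholly below). All 316 rose in each of the 4 pairs of the same construct and replicate number, and 256 of the 257 fell in each. Same-numbered libraries deviated together, and with the replicate number as a block 880 genes were called higher (6.6%) and 911 lower (6.83%), among them all 573 genes of the fit without it. DESeq2 called 696 higher (5.22%) and 737 lower (5.53%).

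The number of calls without the block changed with each library left out, in fits that also had fewer libraries to test. It was 39 higher and 33 lower without TOXFL GFP-negative replicate 1, 140 and 83 without TOXFL GFP-negative replicate 2, 89 and 63 without TOXFL GFP-positive replicate 1, and 95 and 66 without TOXFL GFP-positive replicate 2. It fell to 17 and 17 without TOXdeltaN GFP-negative replicate 1, was 139 and 105 without TOXdeltaN GFP-negative replicate 2 and 357 and 272 without TOXdeltaN GFP-positive replicate 2, and rose to 631 and 759 without TOXdeltaN GFP-positive replicate 1. A core of 16 higher and 17 lower genes was called in all 8 of these fits. The higher ones were Tox, Cd81, Prr5, Bmyc, Slc43a3, Kpna2, Stmn1, Tubb4b, Tk1 and 7 genes with roles in mitosis (Cdk1, Ube2c, Birc5, Cdca3, Cenpm, Spc25 and Pimreg). Among the lower ones were Vipr1, Slc28a2b, St6gal1, Gbp10, Ifi209, Tcp11l2, Il18r1, Kdm7a, Cmah, Pik3ip1, Ash1l, Crebrf, Pecam1, 9930111J21Rik2, Tsc22d3 and Tecpr1. With the block, 210 higher and 175 lower genes of the fit without it were called in all 8 omissions.

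**Figure D1:**
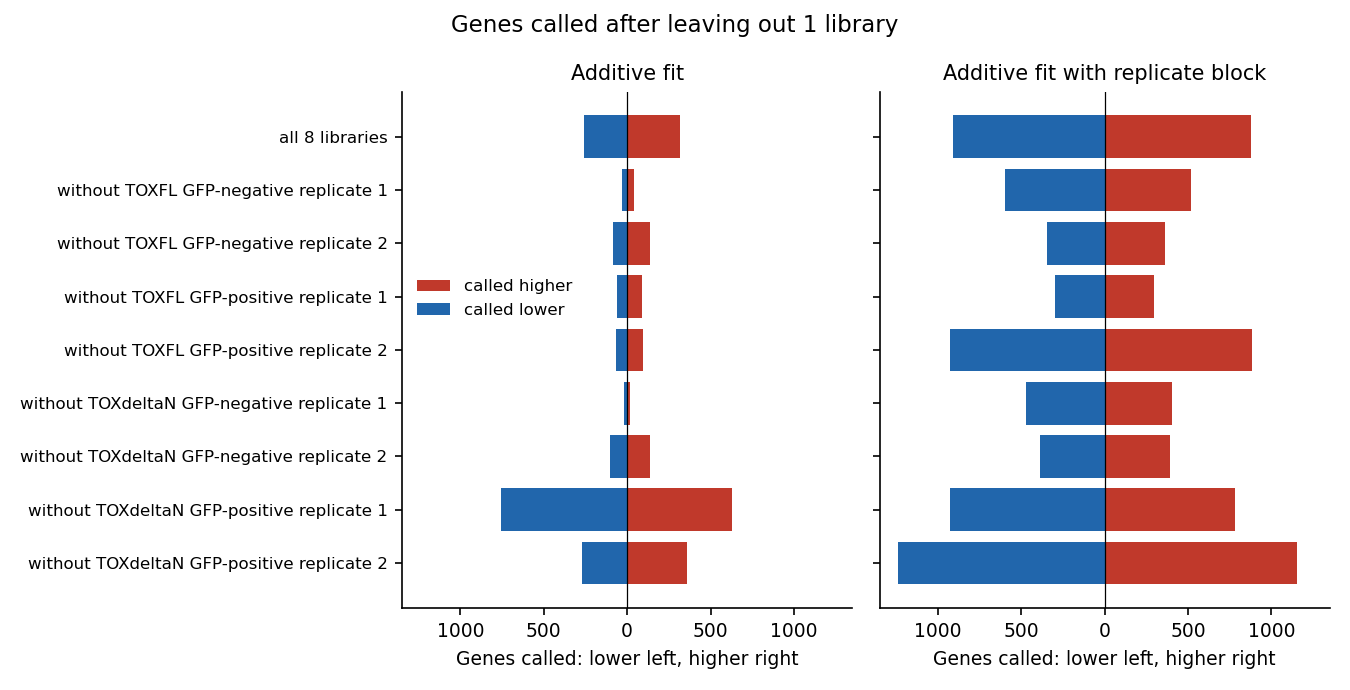
Bars give the number of genes called higher (right) and lower (left) in GFP-positive cells with all 8 libraries and after leaving out each 1, without (left panel) and with (right panel) the replicate number as a block. Counts without the block run from 17 to 631 higher, and with it from 295 to 1154.

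The effect of each construct was then taken from its own libraries, which the other construct does not share. Over the 9054 genes with a mean above 8 CPM, the TOXFL and TOXdeltaN effects had a Pearson r of 0.687 and a Spearman rho of 0.678 across genes, as a description, since genes of the same libraries are not independent. Both effects had the same sign for 75.5% of them. The 200 genes with the smallest p in a fit of the TOXFL libraries alone changed by a median of 0.557 in log2 there and by 0.389 in the same direction in the TOXdeltaN libraries. Of these, 191 kept their sign and 126 also had an unadjusted p under 0.05, as did 7.5% of all tested genes. In the reverse direction, the top 200 genes of the TOXdeltaN libraries changed by 0.604 there and by 0.495 in the TOXFL libraries, where 188 kept their sign and 152 had an unadjusted p under 0.05, against 15.8% of all tested genes.

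The difference of the construct effects was tested as an interaction. edgeR called 0 genes (318 at an unadjusted p under 0.05), with the block also 0 (494 unadjusted), limma-voom 0 and DESeq2 7. Without the filter on low counts edgeR called 45, of which 44 were among the 13329 genes tested with it. Of the genes called over both constructs, 3 higher and 10 lower ones had an unadjusted interaction p under 0.05. Among the lower genes with a larger effect in TOXFL were Dhx9, an RNA helicase (-1.26 against -0.35 log2), Kmt2a, a histone methyltransferase (-0.77 against -0.28), Foxo3, a transcription factor of quiescent cells (-1.01 against -0.32), and Tatdn2, a member of the TatD nuclease family (-1.83 against -0.76). Their adjusted interaction p was 1, and they were picked by that unadjusted p. The calls of Dhx9 and Kmt2a over both constructs were lost with the length offsets described below. With the block and these offsets together, Dhx9 was called and Kmt2a was not.

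**Figure D2:**
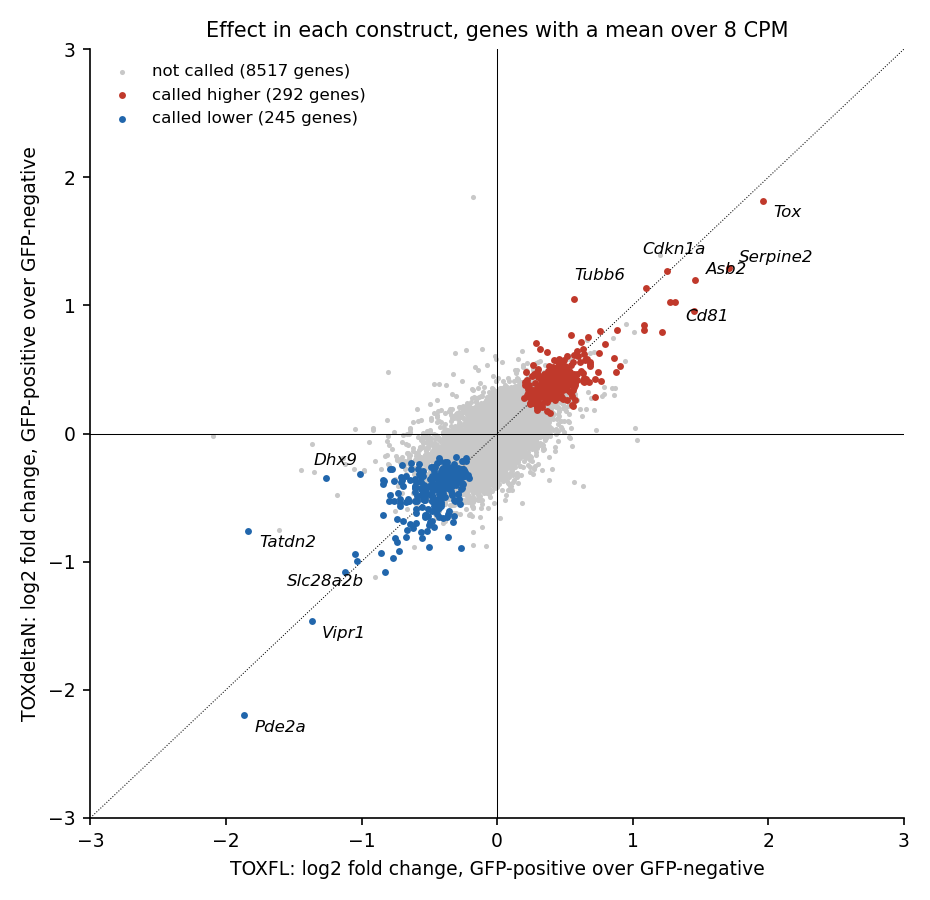
Each point is 1 of 9054 genes with a mean over 8 CPM, placed by its log2 fold change in TOXFL (x axis) and in TOXdeltaN (y axis). The 292 genes called higher and 245 called lower over both constructs lie in the upper right and lower left of the plot, with Tox and Pde2a at the ends of the called genes.

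Genes were ranked among the called protein-coding genes with a mean over 8 CPM in the higher GFP class and the same direction in all 4 pairs. The 15 largest increases, led by Tox, covered secreted, surface, cytoskeletal and cell cycle proteins. Serpine2, a secreted inhibitor of serine proteases, stood at 31.8, 67.1, 38 and 75.3 CPM without and 112, 212, 106 and 172 CPM with GFP. Its log2 fold change was 1.5 (SE 0.30, adjusted p = 0.0254), with no overlap, although replicate 2 was well above replicate 1 in every group. The tetraspanin Cd81, a membrane organiser that partners with receptors, was tighter, at 6.41, 6.44, 7.9 and 7.92 CPM without GFP against 16.6, 15.3, 15.8 and 16.5 CPM with GFP. It rose by 1.17 (SE 0.10, adjusted p = 0.000702) and was called in 8 of 8 omissions, while Serpine2 was called in 4.

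Asb2, the substrate-binding subunit of a cullin ubiquitin ligase, stood at 4.88, 7.92, 4.86 and 9.9 CPM without GFP against 13, 22.3, 15.3 and 18.7 CPM with GFP (log2 1.33, SE 0.25). Tnfsf4, which encodes the ligand of the costimulatory receptor OX40, stood at 4.1, 6.44, 5.34 and 5.67 CPM without GFP against 9.57, 16, 8.27 and 14.2 CPM with GFP (log2 1.15, SE 0.23). Both groups were separate for either gene. Ier5l (1.2), the carbonic anhydrase Car2 (1.00), the spindle protein Psrc1 (0.95), the reductase Dcxr (0.87), the filopodial myosin Myo10 (0.85) and the metallothionein Mt1 (0.84) rose in all 4 pairs without overlap. Spp1, the secreted protein osteopontin, only just passed the test (0.98 log2, adjusted p = 0.0495), with no overlap, and was called in 1 of 8 omissions.

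The largest decrease in this ranking was that of Pde2a, a phosphodiesterase that degrades cyclic AMP and cyclic GMP. It stood at 129.5, 28.6, 157 and 43.8 CPM in GFP-negative and 30.2, 13.2, 19.8 and 24 CPM in GFP-positive libraries. The groups overlapped, because GFP-negative replicate 2 of TOXFL lay under GFP-positive replicate 1, and the log2 change of -2.03 (SE 0.49, adjusted p = 0.0471) was called in 2 of 8 omissions. Vipr1, the receptor for vasoactive intestinal peptide, moved alike in all libraries. It stood at 13.5, 12.7, 14.8 and 13.9 CPM without GFP against 4.26, 5.87, 5.88 and 4.47 CPM with GFP, a log2 change of -1.42 (SE 0.14, adjusted p = 0.00138). Every GFP-positive value lay under 6 CPM and every GFP-negative value above 12 CPM.

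Slc28a2b, a copy of the nucleoside transporter gene Slc28a2, stood at 139, 124, 109 and 105 CPM without GFP against 63.5, 65.1, 58.5 and 49.1 CPM with GFP, a log2 change of -1.01 (SE 0.07, adjusted p = 0.000524). Slc28a2 itself fell too (-0.35 log2, SE 0.08), and because the 2 genes are close copies, the split of reads between them is uncertain. St6gal1, which adds sialic acid to glycoproteins, stood at 35, 44.2, 35.2 and 38.5 CPM without GFP against 18, 25.8, 19.4 and 19.2 CPM with GFP (-0.89 log2, SE 0.12). The groups of these genes were separate. Syt6 (-1.1), the transcriptional repressor Nacc2 (-1.02), the zinc finger gene Zfp831 (-0.87) and the cannabinoid receptor gene Cnr2 (-0.87) also fell without overlap.

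**Figure D3:**
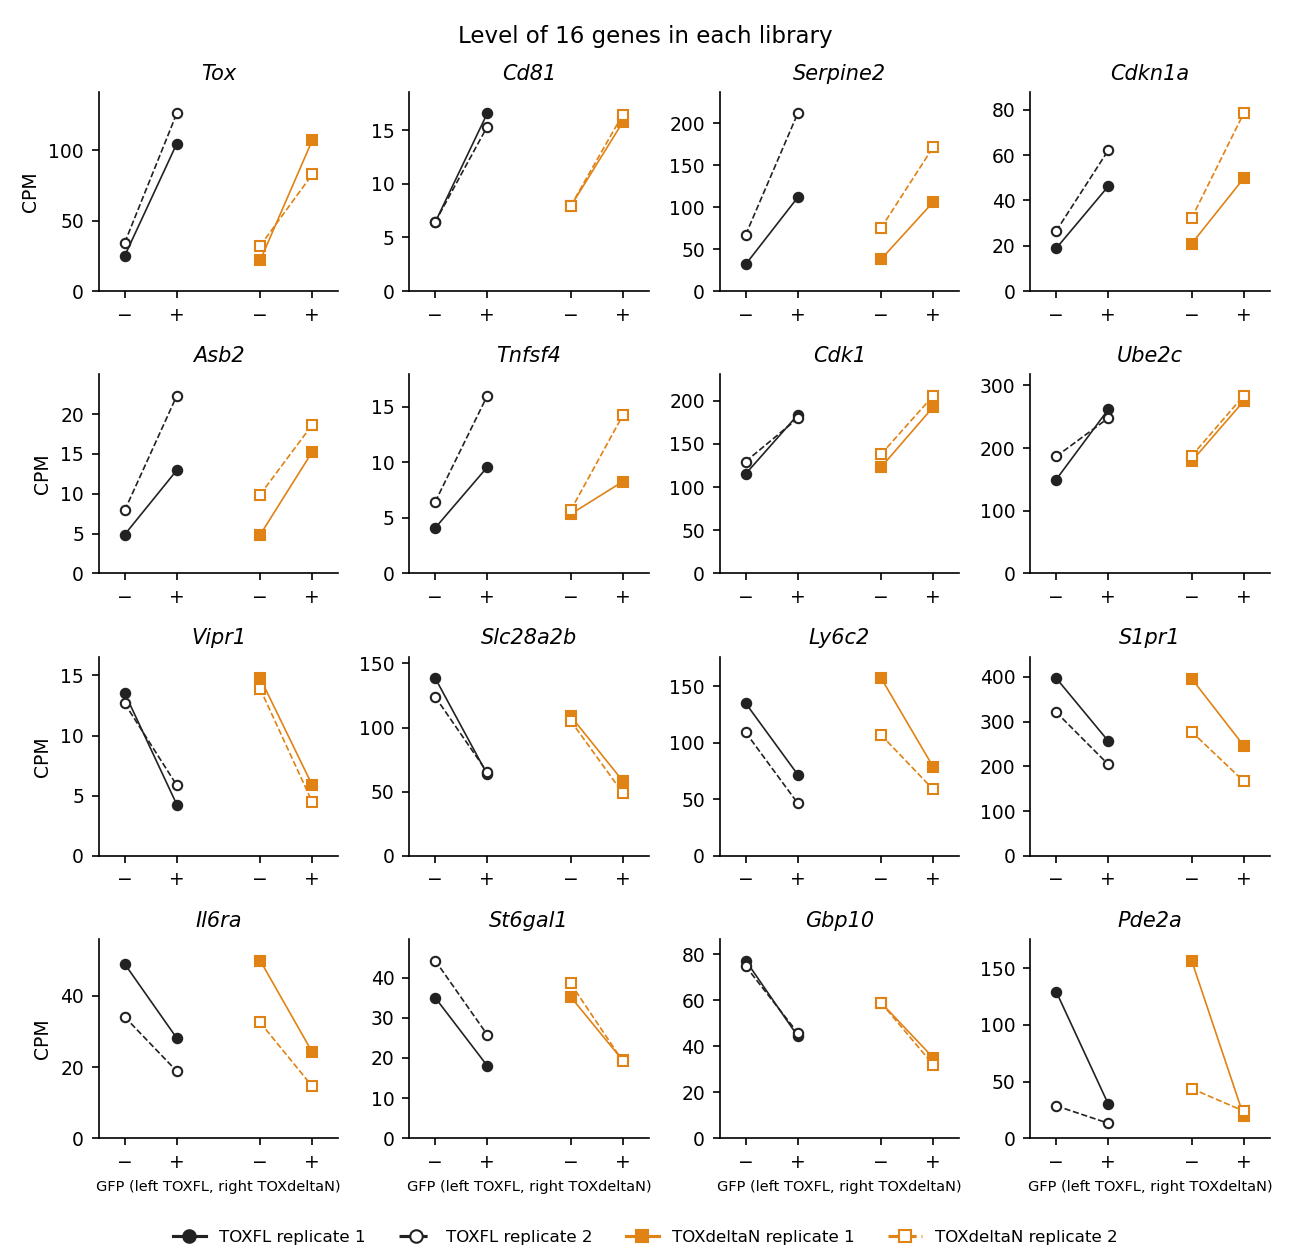
Level in CPM (y axis, linear from 0) of 16 genes in GFP-negative and GFP-positive libraries, TOXFL on the left of each panel and TOXdeltaN on the right, with lines joining libraries of the same replicate number. In all 16 panels the 4 lines slope the same way, and for Pde2a replicate 2 starts far under replicate 1.

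Genes of mitosis had the highest share of members called among the 41 lists. These genes are expressed in waves towards cell division: the kinase Cdk1 with its cyclins drives entry into mitosis, the Aurora and Plk1 kinases and the chromosomal passenger proteins build the spindle, and Cdc20 and Ube2c direct the proteolysis that ends it. All 26 list members had a positive log2 fold change, 18 were called higher (69.2%, against 2.37% of all tested genes) and 0 lower, and the median was 0.41 (all tested genes: -0.0007). The promoters of Cdk1 and Ube2c are shown because both genes were called in every omission, and because mitotic promoters are known for a cell cycle element called CHR (TTTGAA) next to CCAAT boxes. The sequences are the 250 bases before the RefSeq start site in GRCm38.p6, Cdk1 at chr10:69352913-69353162 on the minus strand and Ube2c at chr2:164769679-164769928 on the plus strand, with CHR and CCAAT matches on either strand in capitals.
Cdk1: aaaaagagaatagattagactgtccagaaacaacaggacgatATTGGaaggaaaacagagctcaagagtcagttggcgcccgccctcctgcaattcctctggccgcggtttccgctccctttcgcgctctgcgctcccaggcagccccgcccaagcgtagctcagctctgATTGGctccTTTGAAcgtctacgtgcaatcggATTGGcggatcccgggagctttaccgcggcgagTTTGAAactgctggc
Ube2c: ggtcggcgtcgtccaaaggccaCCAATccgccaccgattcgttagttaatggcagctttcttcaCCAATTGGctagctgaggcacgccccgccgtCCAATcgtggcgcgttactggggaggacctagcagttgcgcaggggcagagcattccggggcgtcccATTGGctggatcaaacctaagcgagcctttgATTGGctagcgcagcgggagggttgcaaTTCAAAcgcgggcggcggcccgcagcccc
In Cdk1 the CHR matches start 71 and 15 bases before the start site, and in Ube2c the match starts 29 bases before it. The CCAAT matches at 186 and 183 bases in Ube2c overlap each other. In windows from 250 bases before to 50 after the most upstream start of each gene, 16 of the 21 mitosis genes with a RefSeq promoter held TTTGAA (76.2%), against 12.3% of 10149 tested genes and 18.2% of all 27025 promoters. CCAAT was found in 19 of the 21 (90.5%), against 39.5% of tested genes and 38.0% of all promoters. Of 21 DNA replication genes with a promoter, 3 held TTTGAA (14.3%) and 13 CCAAT (61.9%). These letter matches are not evidence of binding.

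Cdk1 stood at 115, 129.6, 123 and 138 CPM in GFP-negative and 184, 179.6, 193 and 206 CPM in GFP-positive libraries, a log2 change of 0.59 (SE 0.07, adjusted p = 0.00387). The ubiquitin-conjugating enzyme gene Ube2c stood at 149.7, 186, 179 and 187 CPM without GFP against 262, 248, 275 and 283 CPM with GFP (0.60 log2, SE 0.07, adjusted p = 0.00512). All 4 GFP-positive libraries were the higher ones for both. Aurka (0.58), Birc5, encoding survivin (0.51), Cdc20 (0.47), Aurkb (0.46), Ccna2 (0.45), Ccnb1 (0.44) and Plk1 (0.44) rose with them. Top2a (0.20 log2, adjusted p = 0.16), Anln (0.22, 0.357) and the proliferation marker Mki67 (0.06, 0.676) did not pass the test. Mki67 stood at 499, 533, 499.9 and 486 CPM without GFP against 547, 495, 589 and 473 CPM with GFP with overlapping groups. The number of members called ran from 3 without TOXdeltaN GFP-negative replicate 1 to 25 without TOXdeltaN GFP-positive replicate 2.

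Of 26 genes of DNA replication, 11 were called higher and 0 lower (42.3%, background 2.37%), with a median of 0.30, and the block gave 18 and DESeq2 19. Enzymes that make deoxynucleotides were among those called: thymidine kinase Tk1 at 84.6, 86.5, 87 and 96.3 CPM without GFP against 119, 119, 123 and 135 CPM with GFP (0.48 log2, adjusted p = 0.00628), thymidylate synthase Tyms (0.44) and the ribonucleotide reductase subunit Rrm2 (0.43). The groups of Tk1 and Tyms did not overlap. Of the replicative helicase genes, Mcm5 (0.25) and Mcm7 (0.25) were called, and Mcm2 (0.12), Mcm3 (0.12), Mcm4 (0.05) and Mcm6 (0.09) were not. Without TOXdeltaN GFP-negative replicate 1 only 1 member was called, and without TOXdeltaN GFP-positive replicate 1, 15.

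Of 14 tubulin genes, which encode the subunits of microtubules, 8 were called higher (57.1%, against 2.37% of all tested genes) and 0 lower. The median was 0.37. Tubb4b, called in all 8 omissions, stood at 446, 464, 493 and 494 CPM without GFP against 629.6, 596, 667 and 687 CPM with GFP (0.44 log2, adjusted p = 0.0042). Tubb6 changed most, from 27.6, 39.2, 26.9 and 41.4 CPM without GFP to 59.7, 83.1, 63.4 and 86.8 CPM with GFP (1.11 log2, SE 0.17). Replicate 2 of Tubb6 exceeded replicate 1 in every group, and the groups still did not overlap. Tubulins are a family of similar sequences, so reads may be split between members with error. The number called fell to 2 without TOXFL GFP-negative replicate 1 and to 1 without TOXdeltaN GFP-negative replicate 1.

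Of 18 tested G1 cyclins, kinases and inhibitors, 5 were called higher (27.8%, against 2.37% of all tested genes) and 0 lower. The 5 were Cdkn1a, Cdkn2c and Cdkn2d, which encode inhibitors of cyclin-dependent kinases, and Cdk2 and Ccne2, which encode a kinase and its cyclin. The block called 8 higher (44.4%, against 6.6%). Cdkn1a, the gene of p21 and a target of p53, stood at 18.8, 26.5, 20.9 and 32.1 CPM without GFP against 46.2, 62.1, 49.7 and 78.4 CPM with GFP (1.26 log2, SE 0.18, adjusted p = 0.00932). Its effect was 1.26 in TOXFL and 1.27 in TOXdeltaN, and it was called in 7 of 8 omissions. Cdkn2c stood at 58.8, 65.9, 62.4 and 63.8 CPM without GFP against 89.3, 95, 87.1 and 72.9 CPM with GFP (0.45 log2, SE 0.08). No member was called without TOXdeltaN GFP-negative replicate 1 (1 without either TOXFL GFP-positive library or TOXFL GFP-negative replicate 1), and 8 without TOXdeltaN GFP-positive replicate 1.

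The list of p53 targets was mixed. Of 21 members, 4 were called higher (19%, against 2.37% of all tested genes) and 2 lower (9.52%, against 1.93%). The higher ones were Cdkn1a, Phlda3, which encodes an inhibitor of AKT (0.96), Sesn2 (0.46) and the pro-apoptotic gene Bax (0.38). The lower ones were Sesn1 (-0.38) and Trp53inp1 (-0.35). Phlda3 stood at 13.1, 19.4, 16.2 and 22.8 CPM without GFP against 28.4, 40.3, 29.1 and 41.2 CPM with GFP. With the block 9 were called higher (42.9%, against 6.6%) and 2 lower (9.52%, against 6.83%). Mdm2, which encodes the main antagonist of p53, did not pass either way (0.16 log2, adjusted p = 0.181). In the BCL2 family of 16 tested genes, which sets the threshold for apoptosis, Bax rose and the pro-apoptotic Bcl2l11, encoding BIM, fell from 380.3, 362, 353 and 345 CPM without GFP to 300.2, 267, 287 and 256 CPM with GFP (-0.38 log2, SE 0.06). These were the 1 higher and 1 lower call in that family (6.25% each, against 2.37% and 1.93% of all tested genes). With the block 4 of the 16 were higher, against 6.6% of all tested genes. The block called 1 lower (6.25%, near the 6.83% of all tested genes). Without TOXdeltaN GFP-negative replicate 1 none of the p53 targets was called, and without TOXdeltaN GFP-positive replicate 1, 7 were called higher.

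**Figure D4:**
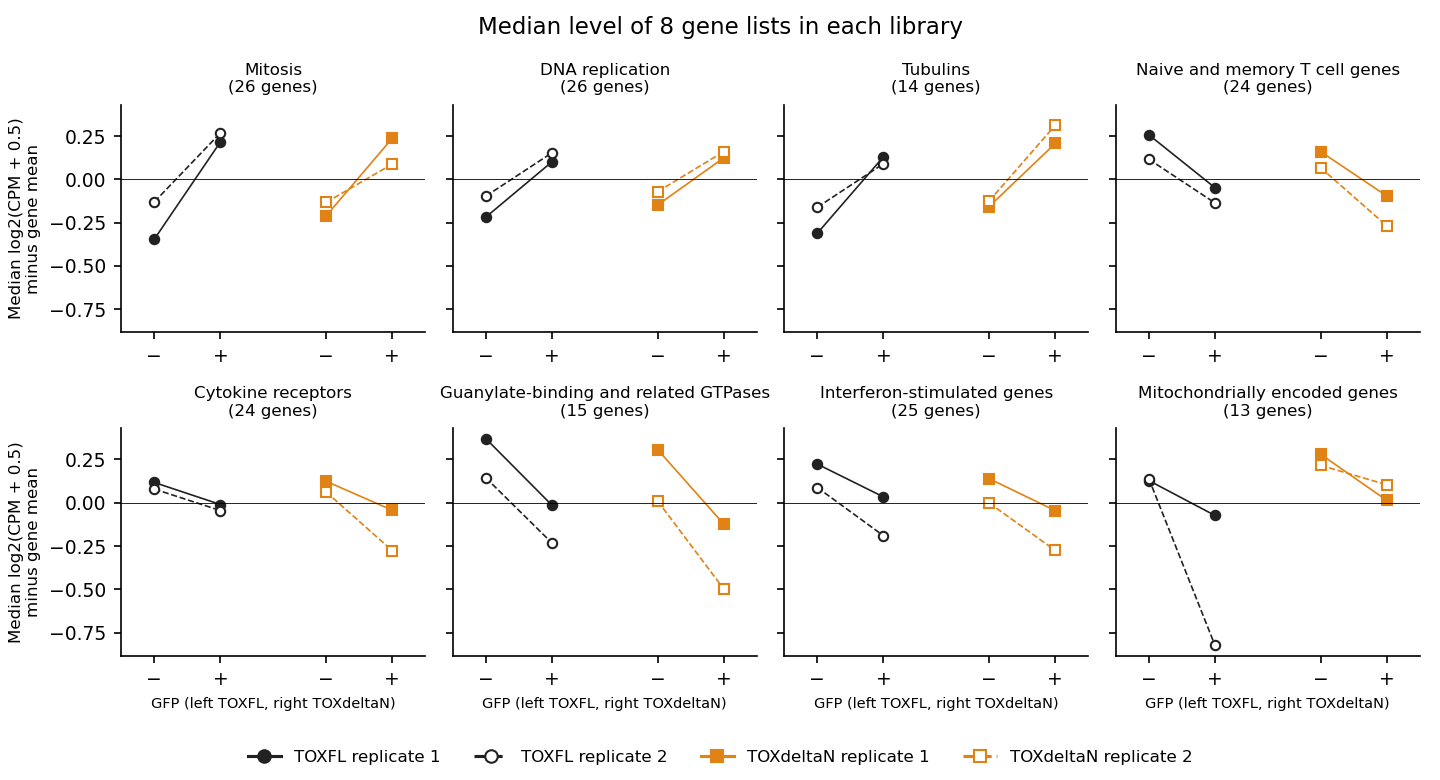
Median over list members of log2(CPM + 0.5), each gene centred on its mean over the 8 libraries (y axis), for 8 lists in GFP-negative and GFP-positive libraries, with lines joining the same replicate number. Mitosis, DNA replication and tubulin genes slope up in all 4 pairs and the other lists down, with 1 TOXFL GFP-positive library at -0.822 for mitochondrially encoded genes.

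Of 24 genes of naive and memory T cells, 8 were called lower and 0 higher (33.3%, against 1.93% of all tested genes), with a median of -0.29. Such genes keep resting T cells circulating through lymph nodes and restrain differentiation: Ccr7 guides entry, S1pr1 guides exit, and Klf2 is a transcription factor that sustains S1pr1. The block called 18 lower and DESeq2 14, and offsets for gene length left 5. S1pr1 stood at 397, 321, 396 and 277 CPM without GFP against 256, 204, 246 and 167 CPM with GFP (-0.67 log2, SE 0.15). Il6ra, which encodes a subunit of the interleukin 6 receptor, stood at 49, 34.1, 49.9 and 32.5 CPM without GFP against 28.1, 18.8, 24.2 and 14.6 CPM with GFP (-0.95 log2, SE 0.20). For both genes replicate 2 lay below replicate 1 in each group, and neither set of groups overlapped. Klf3 (-0.57), Klf2 (-0.41), Txk (-0.30), Ccr7 (-0.27) and Slamf6 (-0.26) were also called, Slamf6 only without the length offsets. The transcription factor genes Tcf7 (-0.25 log2, adjusted p = 0.0719), Lef1 (-0.26, 0.0585) and Bach2 (-0.26, 0.0575) missed the threshold and were called with the block. Igfbp4 had the largest change in the list (-1.01, adjusted p = 0.0846), with overlapping groups, and was called with the block. Il7r (-0.02, adjusted p = 0.887) and Cd27 (0.03, 0.857) did not pass with or without the block. Without TOXFL GFP-negative replicate 1, TOXFL GFP-positive replicate 2 or TOXdeltaN GFP-negative replicate 1 a single member was called, and without TOXdeltaN GFP-positive replicate 1, 12.

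Of 27 receptors for trafficking and integrins, 4 were called lower (14.8%, against 1.93% of all tested genes), among them Ccr7, S1pr1 and Vipr1. A single member was called higher (3.7%, near the 2.37% of all tested genes). With the block 10 were lower (37.0%, against 6.83%) and 2 higher (7.41%, near the 6.6% of all tested genes). The higher one without the block was the chemokine receptor gene Ccr8, at 1.79, 1.34, 1.06 and 1.91 CPM without GFP against 3.92, 4.39, 3.04 and 3.72 CPM with GFP (1.3 log2, SE 0.25). Cxcr3, which guides effector cells to inflamed tissue, had a log2 change of -0.42 (adjusted p = 0.185) and Itga4 of -0.48 (0.122), and both missed the threshold without the block and were called lower with it. Of 24 cytokine receptors 4 were called lower (16.7%, against 1.93% of all tested genes) and 0 higher, with a median of -0.19. The 4 were Il6ra, Il18r1, Il17ra and Ifngr1. The block called 11 lower (45.8%, against 6.83%) and DESeq2 9. Only 1 member was called without TOXFL or TOXdeltaN GFP-negative replicate 1, against 7 without TOXdeltaN GFP-positive replicate 1. Il18r1, a receptor for interleukin 18, stood at 39.3, 41.7, 40.8 and 42 CPM without GFP against 25, 26.4, 26.2 and 31.9 CPM with GFP (-0.59 log2, SE 0.08) and was called in 8 of 8 omissions. Ifngr1, the ligand-binding subunit of the interferon-gamma receptor, stood at 962, 943, 975 and 957 CPM without GFP against 764, 801, 735 and 769 CPM with GFP (-0.32 log2, SE 0.05). Neither gene's groups overlapped. The interleukin 2 receptor genes Il2ra (adjusted p = 0.997) and Il2rb (0.07 log2, adjusted p = 0.571) did not pass.

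Guanylate-binding proteins and the related immunity GTPases, which are induced by interferon and attack intracellular pathogens, all had negative log2 fold changes. Of 15 tested members, 5 were called lower (33.3%, background 1.93%) and 0 higher, with a median of -0.41. The block called all 15 and DESeq2 12. The promoters of Gbp5 and of Irf1, a transcription factor gene that is itself induced by interferon, are shown because interferon acts through 2 known elements, the ISRE (GAAA, any 2 bases, GAAA) and the GAS (TTC, any 3 bases, GAA). Capitals mark their matches on either strand in the 250 bases before the RefSeq start site, on the plus strand of GRCm38.p6 at chr3:142496684-142496933 for Gbp5 and chr11:53769764-53770013 for Irf1.
Gbp5: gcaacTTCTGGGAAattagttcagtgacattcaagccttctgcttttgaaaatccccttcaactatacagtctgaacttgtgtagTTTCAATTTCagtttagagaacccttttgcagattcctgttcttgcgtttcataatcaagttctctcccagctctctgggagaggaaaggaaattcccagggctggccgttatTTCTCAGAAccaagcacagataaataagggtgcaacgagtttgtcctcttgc
Irf1: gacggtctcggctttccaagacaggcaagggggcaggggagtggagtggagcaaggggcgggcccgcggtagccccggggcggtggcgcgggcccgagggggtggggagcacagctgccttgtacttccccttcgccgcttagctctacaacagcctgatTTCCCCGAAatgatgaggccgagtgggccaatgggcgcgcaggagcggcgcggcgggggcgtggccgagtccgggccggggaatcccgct
Gbp5 holds an ISRE match that starts 165 bases before the start site and GAS matches at 245 and 52 bases, and Irf1 holds a GAS match at 90 bases. No 2 of these matches overlap. An ISRE match was found in all 9 members with a RefSeq promoter, against 3.18% of tested genes and 3.49% of all promoters, and a GAS match in 6 of the 9 (66.7%), against 6.84% and 8.42%. Among 20 interferon-stimulated genes 9 held the ISRE match (45.0%) and 7 the GAS match (35%). Both lists were chosen as genes induced by interferon, and a link of these matches to the GFP difference was not tested. Letter matches of this kind are not evidence of binding.

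Gbp10 stood at 77.2, 74.7, 58.8 and 58.8 CPM in GFP-negative and 44.3, 45.7, 35 and 31.9 CPM in GFP-positive libraries. Its log2 change was -0.78 (SE 0.06, adjusted p = 0.000524) with no overlap and was called in all 8 omissions. Gbp5 stood at 68.2, 69.2, 70.7 and 61 CPM without GFP against 44, 46.6, 48.2 and 37.4 CPM with GFP (-0.61 log2, SE 0.09) and Gbp9 (-0.69), Gbp2 (-0.55) and Gbp8 (-0.48) were the others called. The remaining members, such as Igtp (-0.37, adjusted p = 0.0703) and Irgm1 (-0.31, 0.226), did not pass without the block and were called with it. The list median was higher in replicate 1 than in replicate 2 of every group, though by less than the GFP difference of the same construct: it stood at 0.370 and 0.144 in TOXFL GFP-negative, -0.014 and -0.232 in TOXFL GFP-positive, 0.307 and 0.010 in TOXdeltaN GFP-negative and -0.123 and -0.497 in TOXdeltaN GFP-positive libraries (log2, centred per gene). These genes are paralogs in clusters, so counts of single members are uncertain. Without TOXdeltaN GFP-negative replicate 1 a single member was called, and without TOXdeltaN GFP-positive replicate 1, 11.

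Of 25 other interferon-stimulated genes, 2 were called lower (8.0%, against 1.93% of all tested genes) and 0 higher, with a median of -0.28. The block called 11 lower (44.0%, against 6.83%) and DESeq2 9. The 2 were Irf1, at 304, 295, 296 and 272 CPM without GFP against 251, 239, 245 and 223 CPM with GFP (-0.29 log2, SE 0.06), and Ifit3 (-0.50 log2, SE 0.12). Isg15 (-0.05, 0.886) and Bst2 (0.19, 0.212) did not pass with or without the block. In 6 of the 8 omissions no member was called, and without TOXdeltaN GFP-positive replicate 1, 9 were.

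The Ifi200 family, DNA-binding proteins induced by interferon, and the Ly6 surface proteins gave 6 called lower of 13 (46.2%, background 1.93%) and 0 higher. With the block 8 were lower (61.5%, against 6.83% of all tested genes) and 1 higher (7.69%, against 6.6%). Ly6c2, a surface marker of memory CD8 T cells, stood at 135, 109, 157 and 107 CPM without GFP against 71.8, 46.5, 78.5 and 58.7 CPM with GFP (-0.99 log2, SE 0.16). Ifi206 (-0.82), Ifi208 (-0.74), Ifi209 (-0.69), Ifi213 (-0.68) and Ifi203 (-0.42) fell with it. The number called fell to 1 without TOXFL or TOXdeltaN GFP-negative replicate 1, and family members of similar sequence may share reads. Aim2, a sensor of cytosolic DNA of the same family, had a positive change (0.30 log2, adjusted p = 0.143) and was the 1 called higher with the block. The MHC class I list had 0 of 15 called by edgeR (7 lower at an unadjusted p under 0.05, DESeq2 2 lower, limma-voom 0, with the block 3 lower).

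Inhibitory receptors, the surface brakes that TOX is known for in exhausted cells, were mostly not called. Of 15 tested, 2 were called higher (13.3%, against 2.37% of all tested genes) and 0 lower, with a median of 0.11. The block called 4 higher (26.7%, against 6.6% of all tested genes) and 2 lower (13.3%, against 6.83%). Cd160 stood at 84.7, 97.3, 86 and 102 CPM without GFP against 136, 150.5, 126 and 152 CPM with GFP (0.61 log2, SE 0.09, adjusted p = 0.00932), and Cd244a, encoding 2B4, at 7.12, 4.65, 4.99 and 4.3 CPM without GFP against 10.1, 8.44, 8.98 and 7.99 CPM with GFP (0.76 log2, SE 0.16). Both were separate between groups. Pdcd1, encoding PD-1, stood at 65.4, 91.5, 66.4 and 101 CPM in GFP-negative and 102, 146, 106 and 172 CPM in GFP-positive libraries. Its groups did not overlap, replicate 2 exceeded replicate 1 in each, and the change of 0.70 missed the threshold (adjusted p = 0.0628) without the block and was called with it. Tigit (0.40, adjusted p = 0.227) also missed it and was called higher with the block, and Btla (-0.32, 0.0761) and Vsir (-0.30, 0.0574) lower. Lag3 (0.10, 0.724), Ctla4 (0.02, 0.922) and Havcr2, under 0.6 CPM in every library, did not pass in either fit. Without TOXdeltaN GFP-negative replicate 1 no inhibitory receptor was called.

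Of 13 granule genes of effector cells, 2 were called higher (15.4%, against 2.37% of all tested genes), and 4 with the block (30.8%, against 6.6%). The 2 were granzyme B (Gzmb) at 220.0, 212, 240.5 and 231 CPM without GFP against 247, 255, 275 and 306 CPM with GFP (0.26 log2, SE 0.06) and granzyme C (Gzmc) at 7.19, 5.14, 7.22 and 6.07 CPM without GFP against 10.3, 7.97, 12 and 15.5 CPM with GFP (0.81 log2, SE 0.17). The pore protein gene Prf1 did not pass (-0.09, adjusted p = 0.803). Of 16 cytokines and chemokines, 3 were called higher (18.8%, against 2.37% of all tested genes), namely Spp1, Ccl3 (0.54) and Lta (0.40). With the block 6 were higher (37.5%, against 6.6%) and 1 lower (6.25%, against 6.83%). Ifng (0.22, 0.574), Tnf (0.08, 0.7) and Il2 (0.27, 0.768), the cytokines by which effector function is usually judged, did not pass with or without the block. Among 9 ligands of the TNF family only Tnfsf4 was called (11.1%, against 2.37%). With the block 3 were higher (33.3%, against 6.6%) and 1 lower (11.1%, against 6.83%). No cytokine was called without any 1 of the TOXFL libraries or of the TOXdeltaN GFP-negative ones, 1 was higher and 1 lower without TOXdeltaN GFP-positive replicate 2, and 6 were higher and 1 lower without TOXdeltaN GFP-positive replicate 1. Granule genes went from 0 called without TOXdeltaN GFP-negative replicate 1 to 4 without TOXdeltaN GFP-positive replicate 1. Offsets for gene length left 1 granule gene and 1 cytokine called.

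Of 18 costimulatory receptors, 3 were called lower (16.7%, against 1.93% of all tested genes) and 0 higher. With the block 3 were called each way (16.7%, against 6.6% higher and 6.83% lower). The 3 without the block were Cd226 at 45.8, 37.8, 42.4 and 34.2 CPM without GFP against 31.2, 23.7, 31.3 and 25.7 CPM with GFP (-0.52 log2, SE 0.12), Cd84 (-0.30) and Slamf6 (-0.26). The call of Slamf6 was lost with offsets for gene length, with and without the block. None was called without any 1 of the TOXFL libraries or without TOXdeltaN GFP-negative replicate 1. The TNF receptor family genes Tnfrsf4, encoding OX40 (0.66, adjusted p = 0.118), and Tnfrsf9, encoding 4-1BB (0.47, 0.169), did not pass without the block and were called higher with it. Of 29 transcription factors induced by the T cell receptor, 1 was called, Batf3, at 0.857, 2.29, 0.684 and 1.01 CPM without GFP against 2.98, 3.23, 3.76 and 5.51 CPM with GFP (1.69 log2, SE 0.39). The effect of Batf3 was 0.98 in TOXFL and 2.45 in TOXdeltaN, and it was called in 2 of 8 omissions. This 1 call is a share of 3.45%, against 2.37% of all tested genes. With the block 4 were higher and 4 lower (13.8% each, against 6.6% and 6.83%). Bhlhe40, a repressor linked to tissue residency, rose from 54.8, 71.4, 64.1 and 79.8 CPM without GFP to 85.7, 113, 87.2 and 106 CPM with GFP (0.54 log2, SE 0.13). It was the 1 of 15 residency genes called (6.67%, against 2.37% of all tested genes), with 4 higher under the block (26.7%, against 6.6%).

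**Figure D5:**
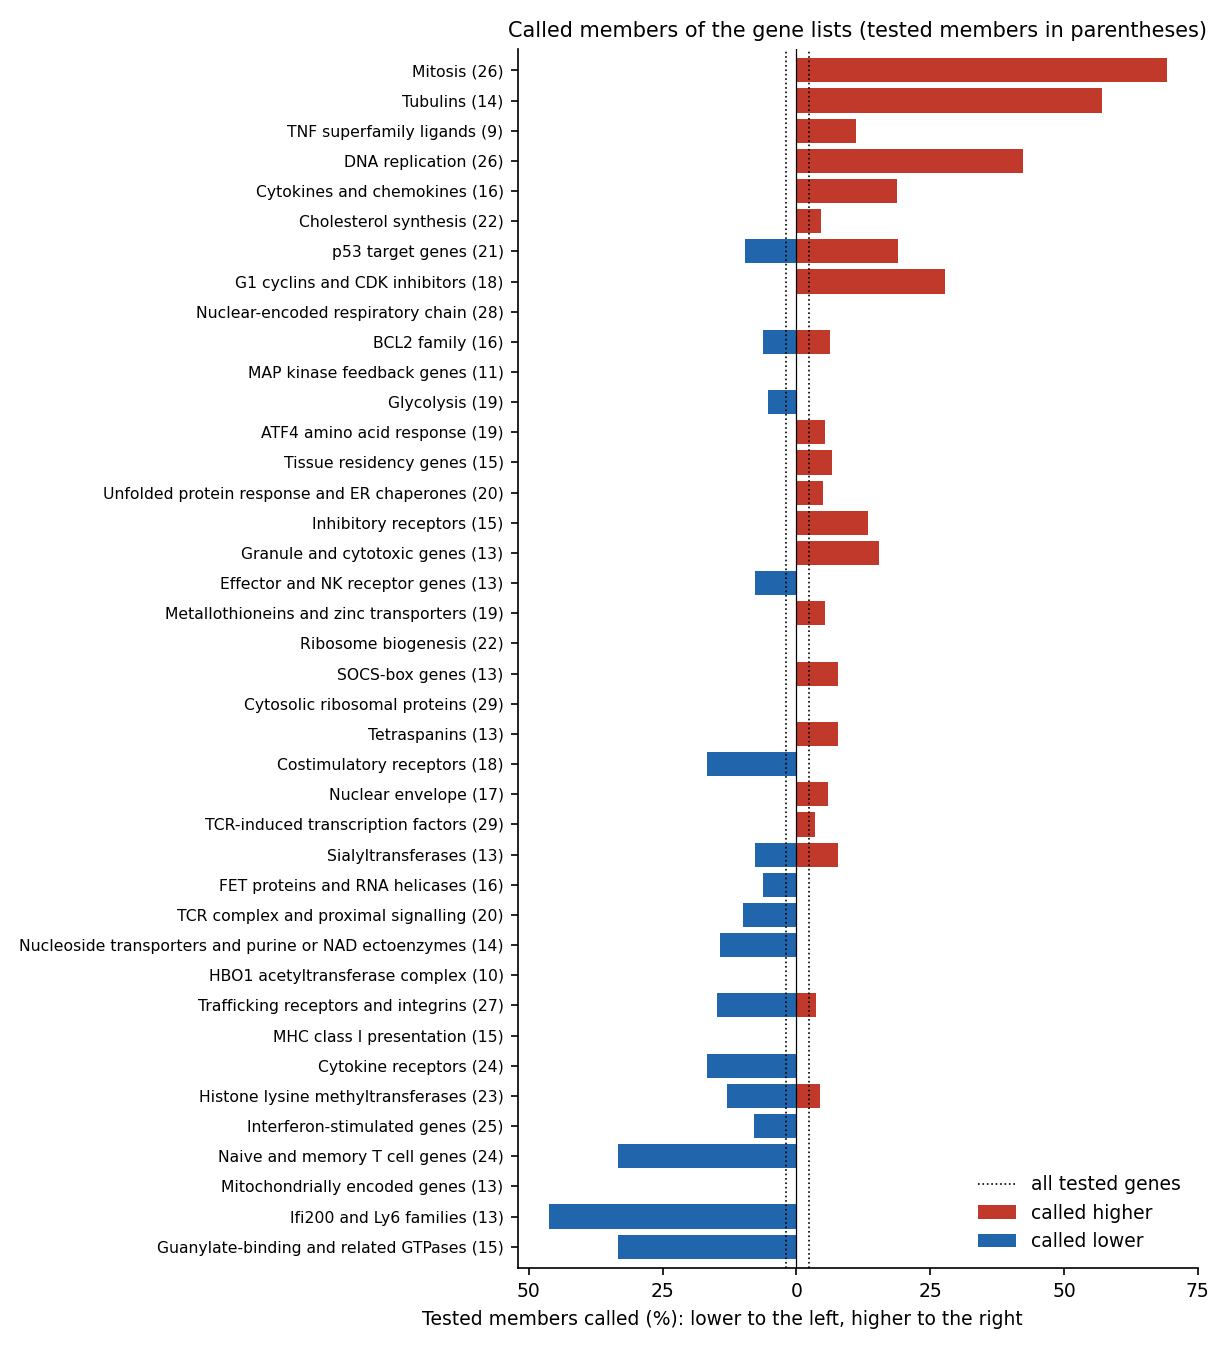
Share of the tested members of 40 gene lists called higher (right) or lower (left) in GFP-positive cells, with lists ordered by their median log2 fold change and the number tested in parentheses. Dotted lines mark the shares over all tested genes, 2.37% and 1.93%.

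Gene length moved with the difference. Across 13319 genes the log2 fold change had a Spearman rho of -0.247 with exon length, and the median exon length was 3212.5 bases for genes called higher, 6706 for genes called lower and 4180 for all tested genes. With offsets that remove a trend with length from each library, 342 genes were called higher and 201 lower, of which 257 and 165 were called in the same direction without them. Histone lysine methyltransferases, with the longest median of the 41 lists (9596 bases), moved with this trend. Of 23 members, 3 were called lower (13%), namely Kmt2d (-0.60), Kmt2a (-0.53) and Kmt2c (-0.51), and 1 higher (4.35%), Ezh2 (0.32). The block called 8 lower and 3 higher. With the offsets 0 were lower and 4 higher, as the median went from -0.21 to -0.08. Kmt2d, a methyltransferase of enhancers, stood at 219, 178, 162 and 162 CPM without GFP against 128, 94.9, 131 and 120.1 CPM with GFP, and Ezh2, the catalytic subunit of a Polycomb complex, at 113, 121, 117 and 123 CPM without GFP against 142, 148, 144 and 159.9 CPM with GFP. The medians of the mitosis list (0.41 with the offsets) and of the guanylate-binding list (-0.44) moved little. None of the 4 TOXFL omissions called a methyltransferase lower, and 6 were lower without TOXdeltaN GFP-positive replicate 1. Why length moved with GFP was not tested.

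The HBO1 acetyltransferase complex, whose members are reported partners of TOX, had 0 of 10 genes called by edgeR (1 higher and 1 lower at an unadjusted p under 0.05), 0 by limma-voom and 0 by DESeq2. All 13 mitochondrially encoded genes had negative changes, with a median of -0.35, but edgeR called 0 (9 lower unadjusted, limma-voom 0, DESeq2 7 lower, with the block 4 lower). Without TOXFL GFP-positive replicate 2 the median was -0.22. Nuclear genes of the respiratory chain went the other way, with 27 of 28 positive and a median of 0.16, and edgeR called 0 (11 higher unadjusted, limma-voom 0, DESeq2 6, with the block 5). Genes of cytosolic ribosomal proteins had a median of 0.01, with 0 of 29 called by edgeR, by DESeq2 and by limma-voom and 0 at an unadjusted p under 0.05.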

How the data were processed

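RNA sequencing covered 8 libraries, with 2 in each of 4 groups that the labels define by construct and GFP. The authors ran bcl2fastq 2.20, cutadapt, STAR 2.6.1 and RSEM 1.2.28 with GRCm38, per the submitters' processing notes. The authors deposited estimated counts per gene (RSEM expected counts) as whole numbers with no normalisation, and the rounding step is not given in the sources used here. The library chemistry (SMART-Seq v4 and Nextera XT, per the labels' protocols) does not mark strand, so overlapping antisense genes cannot be told apart. Of 31907 rows, the 92 for ERCC spike-ins held 0 counts and were left out. Symbols, coordinates and exon lengths came from GENCODE M21, in which 31173 identifiers matched with their version and 31748 without it, and promoters came from RefSeq on GRCm38.p6.

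Counts were analysed with edgeR 4.0.16 in R 4.3.3. Genes were kept with filterByExpr by group (13329 genes), scaled with TMM factors from 0.9894 to 1.0204, and tested with the quasi-likelihood F-test on an additive model of construct and GFP status, with Benjamini-Hochberg adjustment and a threshold of 0.05. The biological coefficient of variation was 0.126. Interactions and effects per construct came from a model of the 4 group means. CPM values use the TMM factors, and the standard error of a fold change was derived from the F statistic. At totals of 25059112 to 31240067 counts, the spread between libraries exceeded counting error over the tested genes as a whole. For genes near 8 CPM, counting error is a larger part of that spread than for highly expressed genes. limma 3.58.1 (voom) and DESeq2 1.42.0 were alternatives, with other scaling and filters, offsets that remove a lowess trend with exon length, the replicate number as a block, and each library left out in turn.

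The meaning of a replicate number is not given in the labels and was inferred from the data. Libraries with the same number deviated from their group means together, with positive correlations in all 6 pairs of groups (0.244 to 0.312 over all tested genes, 0.254 to 0.487 over genes above 8 CPM), so the counts called with the block are given beside the list counts that they move by more than 1.5 times.

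Named genes were Tox, the 15 largest changes each way among called protein-coding genes over 8 CPM in the higher GFP class with the same direction in all 4 pairs, and up to 3 called members per gene list, 74 in all. Other list members are named as classic members or were chosen after their values were seen. The comparison and the 41 lists were chosen with earlier results of these data known. Some results counted in these totals are not reported here by name.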

Additional observations from a re-analysis of the deposited data

Results flagged for a closer look

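In 6 of 148 sets of 4 libraries examined (named genes and library measures, by GFP status), 1 library stood far from the other 3, with a gap to its nearest neighbour above Dixon's critical share of the whole range, which chance gives in about 1 of 20 sets. TOXdeltaN GFP-positive replicate 2 was that library in 4 of them. Among GFP-positive libraries it had the fewest detected genes (16577), the lowest Myo10 (10.1 CPM) and Il17ra (269 CPM), and the highest Sdf2l1 (148 CPM). TOXFL GFP-negative replicate 1 had the lowest Tubb2a (16.6 CPM) and Tmpo (465 CPM) among GFP-negative libraries. The 5 genes kept their direction in each of the 4 same-number pairs.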

How the results depend on the processing

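None of the 74 named genes reversed direction in any alternative. The balance of calls did: higher calls outnumbered lower ones as reported, but were fewer than lower ones in some alternatives. These included the block (880 and 911), DESeq2 and the fit without the filter on low counts. Of 41 list medians, 30 kept their sign, and the other 11 changed it in at least 1 alternative, such as cytosolic ribosomal proteins (0.01, and -0.06 with length offsets) and FET proteins and RNA helicases (-0.06, and 0.04). Against 316 genes called higher and 257 lower, counts were 179 and 144 for the average of the construct effects, 776 and 1056 without the filter on low counts (21394 genes fitted, 1817 of the 1832 called being among the 13329), and 696 and 737 with DESeq2. Leaving out 1 library gave 17 to 631 genes higher and 17 to 759 lower. Other scaling, a filter at 8 CPM, limma-voom and length offsets alone stayed within 1.5 times, though the share higher was 63% with length offsets and 55.1% without. Interaction calls were 0 except 45 without the filter, 7 with DESeq2 and 1 without TOXFL GFP-positive replicate 1. Of the 74 named genes, 24 lost their call for the average of the construct effects, 10 with length offsets, 3 with limma-voom, 1 without scaling and 1 to 62 when a library was left out. The causes were not tested. At 25059112 counts or more per library, the 2 libraries per group limit precision more than depth for highly expressed genes.

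With the replicate number as a block, 880 genes were called higher and 911 lower, 824 and 882 with the block within construct (4 pairs), and 929 and 717 with the block and length offsets. With the block and 1 library left out, chosen after seeing the data, counts ran from 295 to 1154 higher and from 300 to 1242 lower. They were 515 and 598 without TOXFL GFP-negative replicate 1, 881 and 926 without TOXFL GFP-positive replicate 2, 403 and 472 without TOXdeltaN GFP-negative replicate 1, 389 lower without TOXdeltaN GFP-negative replicate 2, and 783 and 929 without TOXdeltaN GFP-positive replicate 1. All 74 named genes stayed called with the block, which called no interaction, and all but Slamf6 and Kmt2a with the block and length offsets.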

Other observations

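Lipid, stress and surface gene groups had few called members without the block. Of 22 genes of cholesterol synthesis 1 was called higher (4.55%, against 2.37% of all tested genes), Idi1, which makes an isoprenoid precursor, at 90.6, 99.98, 92.5 and 104 CPM without GFP against 111, 131, 114 and 134 CPM with GFP (0.34 log2, SE 0.08), and the list median was 0.22. The block called 7 (31.8%, against 6.6% of all tested genes). The groups of Idi1 did not overlap. Of 20 genes of the unfolded protein response 1 was called higher (5.0%, against 2.37%), the endoplasmic reticulum protein gene Sdf2l1 (0.41 log2, SE 0.07). With the block 4 were called higher (20.0%, against 6.6%). Of 19 genes of the ATF4 amino acid response 1 was called higher (5.26%, against 2.37%) and 4 with the block (21.1%, against 6.6%). The 1 was Sesn2, an inhibitor of mTORC1 signalling, at 29.7, 29.2, 30.6 and 30.5 CPM without GFP against 38.4, 40.2, 41.9 and 45.2 CPM with GFP. Among 19 glycolysis genes Pdk1, which encodes pyruvate dehydrogenase kinase 1, was called lower (5.26%, against 1.93% of all tested genes). It went from 160.4, 164, 159.8 and 142 CPM without GFP to 124, 135, 128 and 121 CPM with GFP (-0.30 log2, SE 0.06). The list median was 0.12, and the block called 7 others higher (36.8%, against 6.6% of all tested genes). The call of Pdk1 was lost with length offsets and kept with the block and length offsets together.

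Single members were called in several small families. Of 13 sialyltransferases, St6gal1 was lower and St3gal2 higher (0.48 log2, SE 0.11), at 9.80, 8.48, 9.44 and 10.1 CPM without GFP against 11.6, 13.6, 12.7 and 14.9 CPM with GFP. Both groups of St3gal2 were separate, though St3gal2 was called in 1 of 8 omissions and St6gal1 in 8. Each call was 7.69% of the list, against 2.37% of all tested genes called higher and 1.93% lower. The block called 2 each way (15.4%, against 6.6% higher and 6.83% lower). Of 20 genes of the T cell receptor complex and its proximal signalling, 2 were called lower (10%, against 1.93% of all tested genes). They were the phospholipase gene Plcg1 (-0.32 log2) and the phosphatase gene Ptpn22 (-0.28). With the block 6 were lower (30.0%, against 6.83%) and 1 higher (5.0%, against 6.6%). The call of Ptpn22 was lost with length offsets alone. Tmpo, which encodes lamina-associated proteins, was the 1 of 17 nuclear envelope genes called (0.27 log2, SE 0.06). This call was 5.88% of the list, against 2.37% of all tested genes called higher. The block called 2 nuclear envelope genes each way (11.8%, against 6.6% of all tested genes higher and 6.83% lower). DESeq2 called an interaction of construct and GFP for 7 genes, among them Taf15, which encodes an RNA-binding protein of the FET family, at 13.1, 10.9, 10.5 and 8.59 CPM without GFP against 3.52, 2.10, 10.3 and 8.43 CPM with GFP. Its effects were -2.09 in TOXFL and -0.02 in TOXdeltaN, and edgeR gave the difference an adjusted p of 1.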
